A study of Mus musculus with 6 samples.

Results

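The HIF subunits and oxygen-sensing hydroxylases are described here through the 9 genes of the table whose symbol is Hif1a, Epas1, Hif3a, Arnt, Egln1, Egln2, Egln3, Vhl or Hif1an, of 27179 genes in all. RNA came from B16F10, an established mouse melanoma line whose genotype is labelled wild type. Of the 6 libraries, 3 were from cultures given 0.01% olive oil (OLO) and 3 from cultures given 0.01% ozonated olive oil (OZO), olive oil exposed to ozone, each for 6 h. The value analysed for each gene was its average log2 CPM over all 6 libraries, which the authors deposited. CPM is the reads of a gene scaled to a library of 1000000 reads. Values of single libraries and of OZO against OLO were not used here. Each level below therefore stands for cells of both treatments pooled, has no error between cultures and carries no test, and no effect of OZO is reported.

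HIF is a transcription factor made of an alpha and a beta subunit that switches on genes for life with little oxygen, such as those of glycolysis and vessel growth. While oxygen is present, prolyl hydroxylases mark the alpha subunit, the VHL protein binds the marked form, and a ubiquitin ligase sends it to the proteasome. A separate asparaginyl hydroxylase keeps the remaining alpha subunit from recruiting its coactivators. These hydroxylases use oxygen, iron and alpha-ketoglutarate, so the pathway is set largely at the level of protein, which RNA-seq does not see.

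The stretches around 4 gene starts are shown first, for the genes at the ends of their families. Hif1a and Hif3a had the highest and the lowest level among the alpha subunits, as Egln1 and Egln3 had among the prolyl hydroxylases. Each sequence is the 300 bases of RefSeq on GRCm38.p6 that run from 250 bases before to 50 after an annotated start, in the direction of the gene. For Hif1a this RefSeq start lies 6492 bases inside the gene span that GENCODE gives below, while the starts of Hif3a, Egln1 and Egln3 lie within 70 bases of the end of their span. Capitals mark ACGTG or GCGTG on either strand (CACGT and CACGC on the printed strand), the core letters of the hypoxia response element, and overlapping matches run together.

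Hif1a, chr12:73907617-73907916, plus strand: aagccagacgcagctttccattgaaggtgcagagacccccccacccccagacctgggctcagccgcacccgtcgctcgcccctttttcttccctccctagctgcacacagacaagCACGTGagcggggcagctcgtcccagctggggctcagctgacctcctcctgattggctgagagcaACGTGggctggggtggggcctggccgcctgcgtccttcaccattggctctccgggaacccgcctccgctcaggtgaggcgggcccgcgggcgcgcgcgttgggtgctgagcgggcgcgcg

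Hif3a, chr7:17062378-17062677, minus strand: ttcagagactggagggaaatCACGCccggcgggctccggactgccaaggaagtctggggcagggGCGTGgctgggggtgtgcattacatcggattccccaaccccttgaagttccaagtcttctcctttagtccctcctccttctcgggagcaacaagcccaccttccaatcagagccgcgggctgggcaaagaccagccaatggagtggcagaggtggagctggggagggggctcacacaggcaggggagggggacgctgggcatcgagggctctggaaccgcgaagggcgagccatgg

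Egln1, chr8:124949205-124949504, minus strand: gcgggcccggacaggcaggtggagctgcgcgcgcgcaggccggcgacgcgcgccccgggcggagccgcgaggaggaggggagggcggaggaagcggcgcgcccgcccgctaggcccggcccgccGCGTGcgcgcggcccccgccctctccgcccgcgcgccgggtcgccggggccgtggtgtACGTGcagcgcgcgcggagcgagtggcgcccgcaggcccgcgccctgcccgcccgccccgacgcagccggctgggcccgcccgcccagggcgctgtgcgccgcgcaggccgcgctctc

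Egln3, chr12:54203825-54204124, minus strand: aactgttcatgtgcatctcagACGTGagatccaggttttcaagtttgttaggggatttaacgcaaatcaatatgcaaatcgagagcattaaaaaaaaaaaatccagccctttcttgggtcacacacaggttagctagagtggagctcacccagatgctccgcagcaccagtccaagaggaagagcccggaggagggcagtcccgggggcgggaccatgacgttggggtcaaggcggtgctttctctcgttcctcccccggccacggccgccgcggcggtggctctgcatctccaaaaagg

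The 4 stretches held 3, 2, 2 and 1 matches of the core letters, in the order printed. Such letters are common, since 43.8% of all 32851 RefSeq promoters of this length held at least 1 match. Of the 9 genes, 8 had an entry in the promoter table, and Egln2 had 2 entries. Among these 9 promoters, 7 held a match, the upstream entry of Egln2 the most with 6, while those of Vhl and Hif1an held 0. A match is a run of letters only, and binding of HIF was not measured.

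CG dinucleotides also differed in number between the genes. The Egln1 promoter held 60 of them in 300 bases, and 99.9% of all promoters held fewer. The 16 of Egln3, the 25 of Hif1a and the 14 of Hif3a were also above the median of 7 over all promoters. Of the 9 promoters, 8 exceeded that median, and the downstream Egln2 entry, with 4, did not. Hif3a, listed at 0.109 CPM, had a promoter with more CG than the median promoter.

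**Figure D1:**
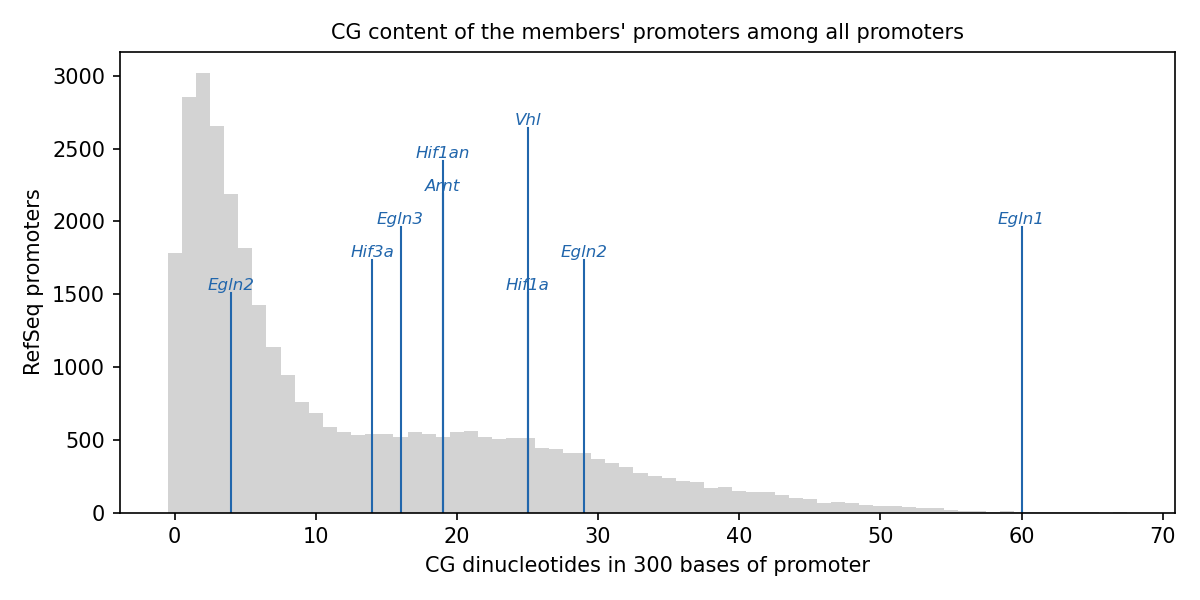
Number of RefSeq promoters (vertical axis) by their count of CG dinucleotides in 300 bases (horizontal axis), with vertical lines at the members' promoters, whose heights only separate the names. Egln1 lies at 60, far to the right of the median of 7, and the downstream entry of Egln2 lies at 4.

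In the deposited averages, 8 of the 9 genes reached at least 1 CPM, as did 43.7% of all genes in the table. Their averages ran from 0.109 CPM for Hif3a to 301 CPM for Hif1a. Because long transcripts collect more reads, the order of the genes is given after division by the length of the longest transcript, as CPM per kb. On that scale 6 of the 9 lay above at least 75% of the 23882 genes with a known length, Egln2 narrowly at 75.6%, whereas 5 of the 9 lay above 75% of all genes by average CPM. The median per kb of the 9 genes was 3.83 (log2), against 0.90 for the 19227 genes with reads and a known length. From highest to lowest, the order per kb was Hif1a, Egln1, Vhl, Arnt, Hif1an, Egln2, Epas1, Egln3 and Hif3a. Whether neighbours in this order differ beyond the spread between cultures cannot be said from averages.

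**Figure D2:**
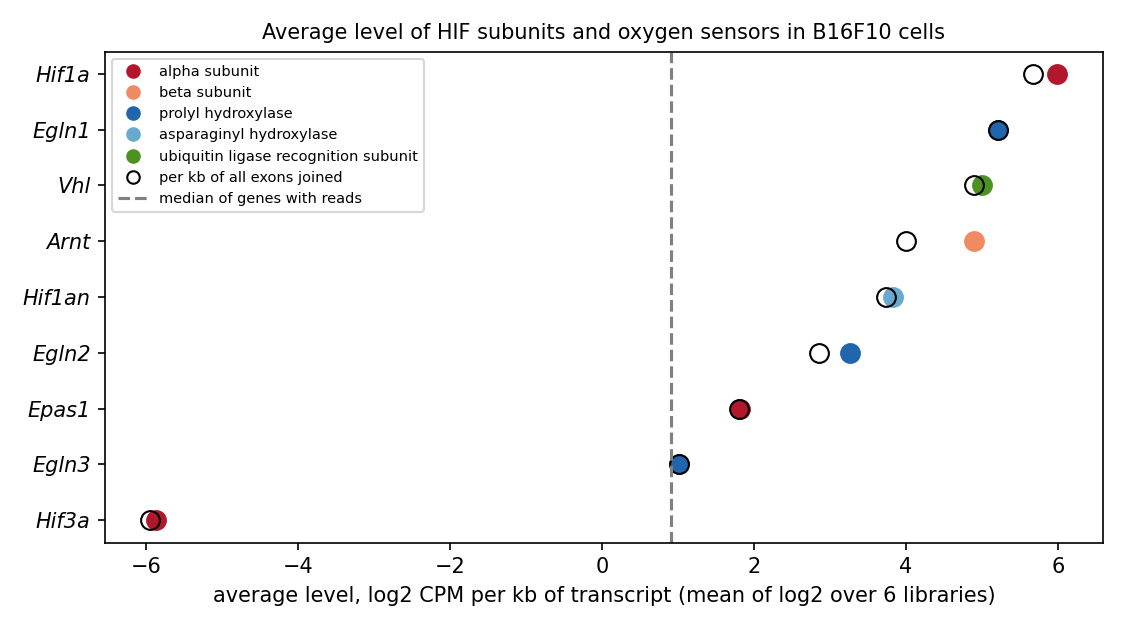
Average level in log2 CPM per kb (horizontal axis) for each of the 9 genes, with filled points coloured by role and scaled by the longest transcript, and open points scaled by all exons joined. The dashed line at 0.90 is the median of genes with reads. Every gene but Hif3a lies to the right of it, Hif1a farthest at 5.99.

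The alpha subunits were far from even. Hif1a encodes HIF-1 alpha, the broadly used subunit, and lies on chromosome 12 of GRCm38 from 73901375 to 73947530 on the plus strand. Its average was 8.23 log2 CPM, or 301 CPM. Scaled by its longest transcript of 4724 bases, this was 63.7 CPM per kb, a level that 96.2% of genes with a known length fell below.

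Epas1 encodes HIF-2 alpha, a related subunit known from endothelium and kidney, on chromosome 17 from 86753700 to 86833410 on the plus strand. It averaged 19.5 CPM, or 3.53 CPM per kb. The level of Hif1a per kb was 18.1 times that of Epas1, a difference of 4.17 on the log2 scale. With all exons joined in place of the longest transcript, it was 14.7 times.

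Hif3a encodes a further alpha subunit with forms that restrain HIF, on chromosome 7 from 17031507 to 17062427 on the minus strand. Its average of -3.20 log2 CPM stood for 2.14 reads per library, a geometric mean that includes the 0.5 reads voom adds to every count. That is too few reads for a ratio to the other subunits. Of the summed level per kb of the 3 alpha subunits, Hif1a made up 94.7% and Epas1 5.25%, and no share is given for Hif3a. Whether a weak level such as that of Hif3a came from few cells or from little RNA in each cell cannot be told apart in bulk RNA. Sdhd, a subunit of succinate dehydrogenase, was also listed low, at 0.186 CPM, while Sdha, Sdhb and Sdhc had 298, 178 and 102 CPM. Whether counting lowered the value of either gene was not tested.

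Arnt encodes HIF-1 beta, the partner that every alpha subunit needs to bind DNA and that is shared with the aryl hydrocarbon receptor. It lies on chromosome 3 from 95434388 to 95497240 on the plus strand and averaged 129 CPM, or 29.7 CPM per kb. Hif1a exceeded Arnt by 1.10 on the log2 scale per kb, a ratio of 2.14, and by 1.67 (3.18 times) with all exons joined. Arnt in turn was 8.43 times as high as Epas1 per kb, or 4.61 times with all exons joined. Arnt has 11 annotated transcripts, and its exons joined measure 8007 bases against 4325 in the longest transcript, so its level per kb depends on that choice.

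The partner and dimer family of Arnt was read from a list of 12 other genes, all of which were found in the table, Arntl and Arntl2 under the newer names Bmal1 and Bmal2. Per kb of the longest transcript, Arnt was higher than all 12, the nearest being Clock, the circadian partner of Bmal1, with a log2 level of 4.51 against 4.89 for Arnt. That lead rested on the length chosen, since with all exons joined Clock and Arnt both stood at 4.01, Clock marginally the higher, and without length correction Clock had 222 CPM against 129 for Arnt. The other 11 genes stayed lower on all 3 scales. Arnt2, the close relative that can replace Arnt in neurons, stood at 0.61, so that Arnt was 19.5 times as high, or 13.0 times with all exons joined. Ahr, the aryl hydrocarbon receptor, averaged 20.9 CPM, whereas 5 of the 12 genes (Npas1, Npas2, Npas4, Sim1 and Sim2) were under 1 CPM.

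Among the prolyl hydroxylases, Egln1 led. It encodes PHD2, regarded as the main oxygen sensor for HIF-1 alpha in most cells, and lies on chromosome 8 from 124908587 to 124949324 on the minus strand. Egln1 averaged 133 CPM or 36.9 CPM per kb, a level that 92.4% of genes with a known length fell below. Egln1 stood at 1.16 times the level of Vhl per kb, or 1.24 times with all exons joined. It stood at 1.24 times the level of Arnt, but at 2.30 times with all exons joined.

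Egln2, which encodes PHD1, lies on chromosome 7 from 27158658 to 27166802 on the minus strand. It averaged 20.3 CPM or 9.65 CPM per kb, so that Egln1 was 3.83 times as high, and 5.09 times with all exons joined. Egln3 encodes PHD3, known as a target that HIF itself induces, and lies on chromosome 12 from 54178981 to 54203860 on the minus strand. It averaged 5.38 CPM or 2.02 CPM per kb, which put Egln1 18.3 times above it. Of the summed level per kb of the 3 prolyl hydroxylases, Egln1 made up 76.0%, Egln2 19.8% and Egln3 4.16%. The share of Egln2 was 15.7% with all exons joined and 12.8% without length correction.

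Hif1an encodes FIH, the asparaginyl hydroxylase that blocks the coactivator contact of the alpha subunit, on chromosome 19 from 44562850 to 44576274 on the plus strand. Its average of 88.0 CPM was close to that of Vhl in CPM, but its longest transcript of 6194 bases is more than that of Vhl, at 2792 bases. Per kb, Hif1an stood at 14.2 CPM, between Arnt and Egln2, and Egln1 was 2.60 times as high.

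**Figure D3:**
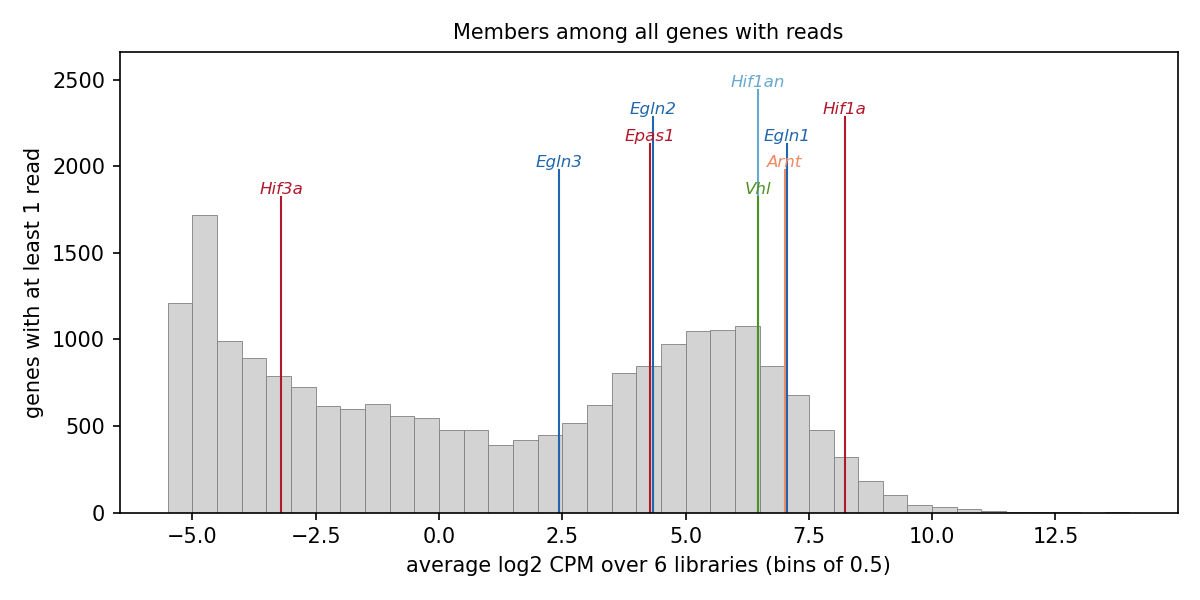
Number of genes with at least 1 read (vertical axis) in bins of average log2 CPM without length correction (horizontal axis), with vertical lines at the 9 genes, coloured by role, whose heights only separate the names. Hif3a lies in the weak part at -3.20, Egln3 at 2.43, Epas1 and Egln2 side by side at 4.28 and 4.35, and the others from 6.46 to 8.23.

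Vhl encodes the part of the ubiquitin ligase that recognises hydroxylated HIF alpha, on chromosome 6 from 113623959 to 113631633 on the plus strand. It averaged 89.1 CPM or 31.9 CPM per kb. Hif1a was 1.99 times as high as Vhl per kb, or 1.71 times with all exons joined. Without length correction Hif1a had 301 CPM against 89.1 for Vhl. The 8 other genes of the ligase and its conjugation steps were all at or above 18.0 CPM. Vhl ranked below Elob, Eloc and Rbx1, the adaptors and the ring subunit, with log2 levels per kb of 6.20, 5.74 and 5.54 against 5.00 for Vhl. The scaffold Cul2 had 4.60, and 5 genes of the list in all were lower than Vhl. With all exons joined Rbx1 also fell below Vhl, at 4.77 against 4.89. Without length correction Elob was lower than Vhl, at 42.7 against 89.1 CPM, and Cul2 and Ube2d3 higher, at 93.1 and 394 CPM, which left 4 genes of the list lower than Vhl.

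Other oxygenases that have been discussed as oxygen sensors were read from a list of 11 genes, of which 10 reached 1 CPM. Their median log2 level per kb was 3.51. Egln1, at 5.21, was higher than all 11, the nearest being the histone demethylase Kdm5a at 4.94 and Jmjd6 at 4.51. Without length correction Kdm5a was the higher, at 336 CPM against 133. Per kb Hif1an exceeded 8 of the 11, Egln2 4 and Egln3 1. That 1 gene was P4htm, a membrane-bound prolyl hydroxylase that can act on HIF alpha, at 0.289 CPM.

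Coactivators and brakes of HIF were measured for all 20 listed genes, and 19 reached 1 CPM. Ep300 and Crebbp, the acetyltransferases that FIH keeps away from HIF alpha, had log2 levels per kb of 4.86 and 2.73. Cited2, which competes with HIF for them, had 4.02. Hif1a was higher per kb than 15 of the 20. The 5 above it were Hsp90ab1, Hsp90aa1, Pkm, Mdm2 and Rack1, chaperones, a glycolytic enzyme and regulators of protein stability, with log2 levels from 6.09 to 10.58. Mdm2 was above Hif1a on that scale only, with 5.49 against 5.67 when all exons were joined and 229 against 301 CPM without length correction.

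The hydroxylases share alpha-ketoglutarate and iron with metabolism, and 10 of 11 listed enzymes that make or use alpha-ketoglutarate or handle its rivals reached 1 CPM, with a median log2 level per kb of 5.32 over all 11. Idh2, which makes alpha-ketoglutarate in mitochondria, had 6.83 and the cytosolic Idh1 5.10. Fh1, the fumarase whose loss lets fumarate inhibit the hydroxylases, had 5.32, beside 5.21 for Egln1. With all exons joined Fh1 was the lower, at 4.96 against 5.21, as it was without length correction, at 105 against 133 CPM.

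**Figure D4:**
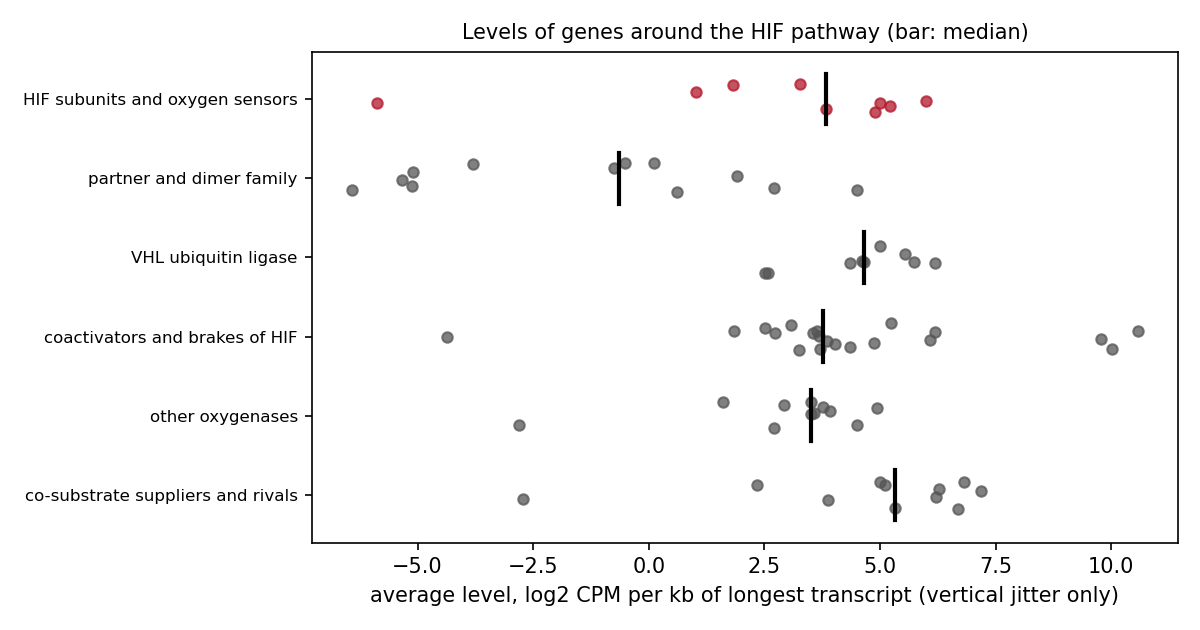
Average level in log2 CPM per kb (horizontal axis) of each gene in the 9 members and in 5 lists around the pathway (Vhl stands in the members and in its ligase), with a bar at each median. The medians were 3.83 for the members, -0.64 for the partner and dimer family, 4.66 for the VHL ubiquitin ligase, 3.77 for coactivators and brakes, 3.51 for other oxygenases and 5.32 for co-substrate enzymes.

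The labelled cell type was checked with defining markers. The 7 markers of the melanocyte lineage ran from 109 CPM for Sox10 to 7052 CPM for Dct. The 4 keratinocyte markers and the 4 leukocyte markers were all under 1 CPM, the highest at 0.0702 CPM and Krt5 without any read. Of the 4 endothelial markers, Pecam1 reached 1.21 CPM and the others, Cdh5 and Kdr among them, were under 1 CPM. Per kb, Pecam1 had a log2 level of -1.50 beside 1.82 for Epas1. Of the 4 fibroblast markers, Pdgfra reached 3.28 CPM and 3 were under 1 CPM.

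Overlap with other annotated genes was small. Egln1, Egln3, Vhl and Hif1an overlap no other gene of GENCODE M21, and Epas1, Hif3a and Arnt share no exon base with the gene that overlaps them. Hif1a shares 330 exon bases with the antisense gene Gm15283 and 148 with Gm49321 on its own strand, or 5.60% and 2.51% of its exon bases. Egln2 shares 11 exon bases with Cyp2t4 on the other strand, which averaged 0.576 CPM. The libraries kept strand, but whether counting used it is not stated in the sources used here.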

How the data were processed

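RNA of 3 OLO and 3 OZO cultures of B16F10 cells was sequenced. According to the methods and the submitters' processing notes, the authors aligned reads to mm10 with HISAT2 (2.1.0), counted them with featureCounts (2.1.1) and compared the groups with limma-voom (3.58.1). The deposited table gives per gene an average log2 CPM over all 6 libraries, used here, and 5 columns of the authors' own comparison (log2 fold change, moderated statistic, p-value, adjusted p-value and log-odds), which were not used and are not printed. The planned tests needed values of single libraries, so none was run.

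The 6025 genes that share the lowest average had no reads, and with the 0.5 reads voom adds, that value gives a geometric mean library size of 19641945 scaled reads, or 19.6 reads at 1 CPM. The depth of each library is unknown. Lengths and positions are from GENCODE M21 on GRCm38, the assembly of mm10, in which 23882 of the 27179 rows were matched by Ensembl identifier, and may differ from the annotation used for counting. Promoters are from RefSeq.

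All 9 members were named, and genes of the lists where a member's level was read against them. The members and lists were chosen with earlier results of these data known. Alternatives were the length used, the scale and the set of genes ranked. The recovery of library size and levels from an average was tested on counts simulated from the levels found here. That test could not check gene lengths, annotation or the authors' counting. Python 3.11.15, numpy 2.4.6, pandas 2.3.3, scipy 1.17.1 and matplotlib 3.10.9 were used.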

Additional observations from a re-analysis of the deposited data

How the results depend on the processing

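No paired analysis was possible because the value used is 1 average per gene over all 6 libraries. For the same reason leaving out a library, another test, normalization, filter or pseudocount was not run. The order per kb of the 9 genes was kept by all 9 with all exons joined, and by 7 without length correction, where Vhl and Arnt changed places. The median percentile of the 9 genes by average CPM was 89.7 among all genes, 86.7 among genes with reads and 76.3 among genes at 1 CPM or more, and it was 80.9 by level per kb, since each set ranks the genes against other neighbours or on another scale. Alternatives for shares and for counts of list genes were chosen after seeing the data. The share of Hif1a among alpha subunits was 94.7%, then 93.6% with all exons joined and 93.9% without length correction. The share of Egln1 among prolyl hydroxylases was 76.0%, then 79.9% and 83.8%. Reads per library are CPM times a constant here, so that scale could change no order. Of the counts of list genes lower than a member, only that of Egln2 among other oxygenases moved by over 1.5 times, from 4 to 2 without length correction. Depth limited Hif3a most, at 2.14 reads per library with the added 0.5, against 106 for Egln3, the next lowest.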

Other observations

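Among the genes for succinate dehydrogenase, the enzyme whose substrate succinate can inhibit the prolyl hydroxylases, Sdha, Sdhb and Sdhc averaged 298, 178 and 102 CPM, while Sdhd, which encodes a membrane anchor of the same complex, was listed at 0.186 CPM. These values were singled out after they were seen. The reason was not tested.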
